A study of Mus musculus with 7 samples.

Results

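The acute-phase proteins and the IL-6/STAT3 pathway were followed here through 10 genes in mouse quadriceps: Saa3, Saa1, Serpina3n, Lcn2, Lbp, Il6ra, Il6st, Osmr, Stat3 and Socs3. They were selected on this same contrast, with their differences between genotypes already known, so their values are a description, and the fit's calls on them support nothing. Every non-control probe that carries one of these names, in the array's own annotation or through its accession, was taken. That gave 11 probes for the 10 genes, of 39429 probes in all, with a pair of probes for Stat3 and a single probe for each of the other genes.

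The acute-phase response is the change in secreted plasma proteins that follows infection or injury, and it is driven in large part by interleukin-6. IL-6 binds its receptor chain IL6RA, the complex engages the shared signalling chain gp130 (Il6st), Janus kinases are activated, and STAT3 is phosphorylated and moves to the nucleus, where it switches on target genes that include its own inhibitor Socs3. The liver is the best known source of acute-phase proteins, and skeletal muscle is also known to make IL-6 and several of these proteins in sepsis, injury and wasting.

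The RNA came from the quadriceps of C57BL/6 mice and was hybridised to 1-colour arrays, 1 sample per array. There were 4 WT and 3 AR113Q samples, with an age of 3 months in the sample labels and 90 days in the series' design text, and no treatment is named. AR113Q mice are knock-in mice that carry an expanded CAG tract in a humanized gene at its own locus, a model of spinal and bulbar muscular atrophy. The labels call the controls WT, whereas the study's text describes control mice with a humanized gene and a shorter CAG tract. The design text adds NCD to the name of the mutant, and this is not explained in the sources used here. The study's text counts the arrays of each genotype as separate mice. In a whole muscle, fewer cells of a type and less RNA per cell cannot be told apart.

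On each array 47.6% to 55.8% of the probes were well above background, the scanner software's call for a spot brighter than its surroundings, and a probe that reached this on no array is called dim below. No spot of a member gene was saturated. The 7 arrays lay on 5 slides, and WT replicate 2 and AR113Q replicate 1 shared the only slide with both genotypes. In the fit over all probes, 20987 probes for 16574 genes were well above background on at least 3 arrays, and a gene was called where its adjusted p did not exceed 0.05 and its log2 fold change reached 1 in either direction. By this rule 11.2% of all genes were called higher and 13.1% called lower in AR113Q muscle, with a median log2 fold change of -0.01. All 10 muscle fiber markers were tested, and 1 of them (Mylpf) was called, lower by a log2 fold change of -1.37. Ckm passed on the adjusted p without reaching the threshold (-0.80, limma, adjusted p = 0.0101).

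Serum amyloid A proteins are small apolipoproteins that can rise steeply in inflammation, and Lbp carries bacterial lipopolysaccharide to its receptor. Their probes are shown because these are the sequences that the intensities report. Each is 60 bases long and is printed as listed in the array's annotation, with mm9 positions where that annotation gives them.
Saa3, chr7:53970389-53970448, minus strand: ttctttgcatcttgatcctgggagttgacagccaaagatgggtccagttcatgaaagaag
Saa1, chr7:53996070-53996129, minus strand: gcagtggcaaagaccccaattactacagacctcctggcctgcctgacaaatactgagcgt
Lbp: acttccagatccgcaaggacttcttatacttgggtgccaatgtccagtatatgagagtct

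The Saa1 probe and that of its closest paralog Saa2 lie at different sites of the transcripts: the longest run they share is 5 bases. The Serpina3n probe likewise shared runs of at most 7 bases with the probes of the 10 other Serpina3 paralogs. Whether a probe also binds a paralog's transcript at its own site was not tested.

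The promoters of the members were searched for the motifs of the factors known to drive acute-phase genes. The windows are the 250 bases before the annotated start, from RefSeq on GRCm38.p6, and 9 of the 10 members had an entry, all but Lbp. Both strands were searched for TTCNNNGAA (STAT factors), TTGCNNAA (C/EBP factors) and GGNNTTTCC (NF-kB), none of which overlapped in these windows. TTCNNNGAA was in 1 of the 9 windows (Socs3) and in 7.02% of the 32851 promoters of the table, TTGCNNAA in 3 of 9 (Lcn2, Saa1, Saa3) and in 9.56%, and GGNNTTTCC in 2 of 9 (Serpina3n, Saa3) and in 4.93%. The 4 promoters below are shown for the members that hold these matches, Saa1 apart, with each match in capitals.
Socs3 promoter, chr11:117969367-117969616, minus strand: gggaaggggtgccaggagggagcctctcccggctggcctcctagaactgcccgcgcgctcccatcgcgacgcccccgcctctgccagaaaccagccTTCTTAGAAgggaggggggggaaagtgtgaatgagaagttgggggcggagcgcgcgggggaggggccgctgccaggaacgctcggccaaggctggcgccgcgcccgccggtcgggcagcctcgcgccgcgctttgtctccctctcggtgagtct
Lcn2 promoter, chr2:32387740-32387989, minus strand: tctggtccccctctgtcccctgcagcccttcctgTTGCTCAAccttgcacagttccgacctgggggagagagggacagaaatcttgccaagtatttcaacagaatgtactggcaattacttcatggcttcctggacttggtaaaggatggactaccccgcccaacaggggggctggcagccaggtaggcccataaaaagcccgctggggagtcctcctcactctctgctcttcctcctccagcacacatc
Saa3 promoter, chr7:46715677-46715926, minus strand: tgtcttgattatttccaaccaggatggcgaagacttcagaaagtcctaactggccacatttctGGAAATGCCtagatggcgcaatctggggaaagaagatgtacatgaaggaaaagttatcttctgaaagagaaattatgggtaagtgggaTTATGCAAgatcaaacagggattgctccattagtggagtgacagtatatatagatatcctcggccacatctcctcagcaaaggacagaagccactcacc
Serpina3n promoter, chr12:104406458-104406707, plus strand: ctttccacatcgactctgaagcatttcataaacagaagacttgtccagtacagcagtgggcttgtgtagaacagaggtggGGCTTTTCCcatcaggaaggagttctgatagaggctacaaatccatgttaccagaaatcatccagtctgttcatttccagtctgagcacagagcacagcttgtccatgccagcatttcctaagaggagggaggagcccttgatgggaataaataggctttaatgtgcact

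The Socs3 match starts at position -154 from the annotated start, that of Lcn2 at -216, and that of Serpina3n at -170. In the Saa3 window the C/EBP match starts at -99 and the NF-kB match at -187, both on the opposite strand. In the Saa1 window TTGCACAA starts at -182, and in that of Saa2 the same letters start at -183. These 2 windows were identical at 197 of 249 bases (79.1%). A match is a stretch of letters, not a measured binding site.

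Of the secreted acute-phase proteins, Saa3, the serum amyloid A made mainly outside the liver, was seen well above background in AR113Q muscle only. Its log2 intensity was 1.86, 1.75, 1.92 and 4.44 in WT replicates 1 to 4 and 9.71, 11.48 and 8.53 in AR113Q replicates 1 to 3. The probe was not well above background in WT on any array and was well above it on all 3 AR113Q arrays, so the WT level is only a bound. Against the dimmest signal called above background on each WT array, or the probe's own where that was higher, Saa3 was at least 62.9-fold higher in AR113Q. The fitted difference of the log2 values was 7.42 ± 0.83 (SE), and it was 3.33 with a background correction that adds an offset, smaller than those of Lcn2 and Serpina3n in that setting. The 7.42 is therefore not a measured fold.

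Serpina3n, a secreted inhibitor of serine proteases, and Lcn2, the iron-siderophore binding protein lipocalin 2, stood apart in the same way but were measured in both genotypes. Serpina3n had log2 intensities of 5.85, 5.77, 4.996 and 7.96 in WT and 10.99, 12.02 and 11.06 in AR113Q, a log2 difference of 5.21 ± 0.64 (SE). Lcn2 had 6.92, 7.60, 7.07 and 9.64 in WT and 12.26, 13.00 and 13.67 in AR113Q, a log2 difference of 5.17 ± 0.65 (SE). On the linear scale these are 37.1-fold and 36.0-fold. The sizes depended on the background handling: with the offset correction they were 16.0-fold and 23.8-fold, and in the authors' values 12.5-fold and 21.1-fold. The lowest AR113Q array lay 3.03 (Serpina3n) and 2.62 (Lcn2) log2 units above the highest WT array, and for both genes that highest WT array was WT replicate 4.

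Saa1, the acute-phase serum amyloid A of plasma, varied most among the AR113Q arrays. Its log2 intensity lay between 5.70 and 6.16 in the 4 WT arrays and was 7.40, 11.29 and 8.37 in AR113Q replicates 1 to 3. All 3 AR113Q arrays were above all WT arrays, but replicate 2 was far above the other two. The log2 difference was 3.13 ± 0.78 (SE). It was 1.996 ± 0.291 without AR113Q replicate 2 and 1.77 ± 0.61 in the authors' own normalized values, where it was not called (limma, adjusted p = 0.0526).

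Lbp had log2 intensities of 9.09, 8.88, 8.93 and 9.66 in WT and 10.57, 11.70 and 10.93 in AR113Q. The difference was 1.93 ± 0.30 (SE), or 3.80-fold, and the groups did not overlap.

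**Figure D1:**
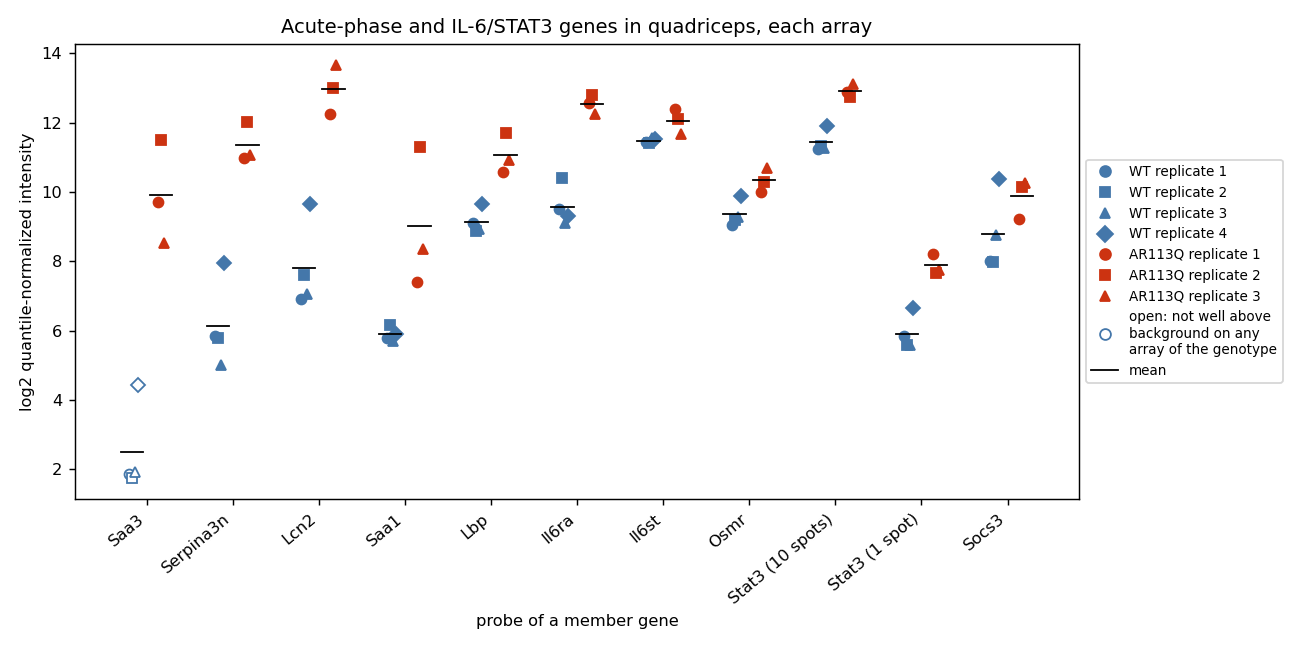
Log2 quantile-normalized intensity of the 11 member probes (x axis) on each of the 7 arrays (y axis). Blue symbols are WT and red symbols AR113Q arrays, shapes stand for replicates, open symbols mark a probe that no array of that genotype showed well above background, and lines are group means. The AR113Q arrays lie above all WT arrays for every probe except that of Socs3, where WT replicate 4 is highest.

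Among the receptors, Il6ra, the chain that binds IL-6 itself, had the widest separation. Its log2 intensity was 9.51, 10.39, 9.10 and 9.30 in WT and 12.58, 12.80 and 12.24 in AR113Q. The log2 difference was 2.96 ± 0.31 (SE), 7.80-fold, and WT replicate 2, not replicate 4, was the highest WT array.

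Il6st encodes gp130, the chain through which all cytokines of the family signal. Its log2 intensity was 11.44, 11.42, 11.55 and 11.52 in WT and 12.38, 12.09 and 11.68 in AR113Q, a difference of 0.57 ± 0.19 (SE) or 1.48-fold. The highest WT and the lowest AR113Q array were 0.13 log2 units apart. Osmr, the partner of gp130 for oncostatin M, had 9.05, 9.19, 9.29 and 9.89 in WT and 10.01, 10.30 and 10.69 in AR113Q. Its difference was 0.97 ± 0.25 (SE), and the groups were 0.12 log2 units apart.

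Stat3 was measured by a probe spotted 10 times on each array and by a dimmer probe spotted once. The 10-spot probe gave 11.23, 11.32, 11.28 and 11.91 in WT and 12.87, 12.75 and 13.10 in AR113Q, a log2 difference of 1.47 ± 0.21 (SE) or 2.78-fold. The SD between arrays was 0.32 in WT and 0.18 in AR113Q. The 1-spot probe lay between 5.58 and 6.64 in WT and between 7.68 and 8.22 in AR113Q. Its difference was 1.97 ± 0.29 (SE), but 0.77 in the authors' values. The 2 probes thus gave the same direction with different sizes.

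Socs3, the feedback inhibitor that binds gp130 and Janus kinases, was the only member whose groups overlapped. Its log2 intensity was 8.01, 7.97, 8.77 and 10.37 in WT and 9.22, 10.13 and 10.26 in AR113Q. WT replicate 4 was above every AR113Q array. The difference was 1.09 ± 0.58 (SE), and 1.63 ± 0.35 (SE) without WT replicate 4.

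By the rule used for all genes, 7 of the 10 members were called, all higher. Il6st and Osmr missed the fold change threshold, and Socs3 missed that on the adjusted p. In 9 of the 10 every AR113Q array was above every WT array, which held for 24.2% of all genes tested. Both counts follow from how the genes were selected, and nothing is read from them.

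The arrays of a genotype were not equally high. WT replicate 4 was the highest WT array for 7 of the 10 members, and for 24.0% of all genes. AR113Q replicate 2 was the highest AR113Q array for 5 (Saa3, Saa1, Serpina3n, Lbp and Il6ra), replicate 3 for 4 (Lcn2, Osmr, Stat3 and Socs3) and replicate 1 for Il6st, beside 28.6%, 34.3% and 37.2% of all genes. Without WT replicate 4 the log2 differences of Serpina3n and Lcn2 were 5.82 and 5.78. On the single slide that held both genotypes, AR113Q replicate 1 exceeded WT replicate 2 in all 11 probes. The excess was 5.22 for Serpina3n, 4.66 for Lcn2, 1.25 for Saa1, 2.18 for Il6ra and 1.25 for Socs3. For Saa3 the values were 8.07 without WT replicate 4 and 7.96 on that slide. These are not measured folds, since the WT level of Saa3 is only a bound. With slide as a fixed effect, limma called 0 members and 0 probes in all, while 8 members and 7928 probes had an unadjusted p under 0.05. That fit leaves the comparison to this 1 pair of arrays.

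**Figure D2:**
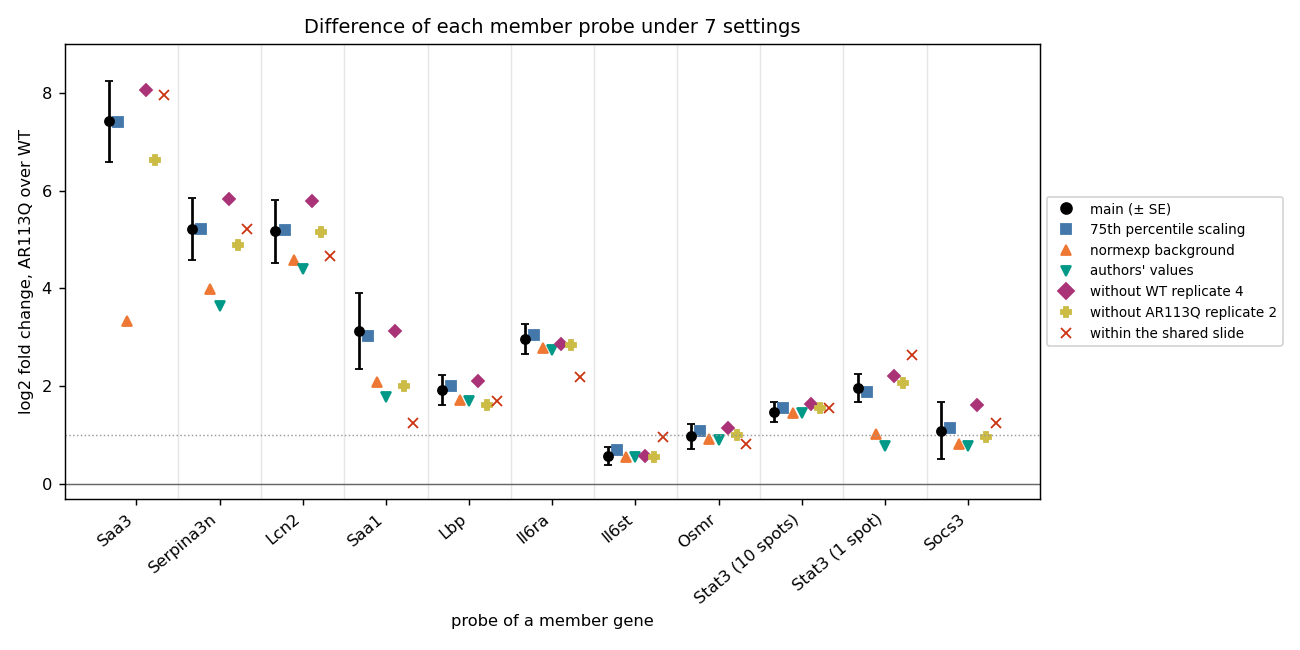
Log2 fold change of each member probe (x axis; y axis, AR113Q over WT) in the main fit with its SE and under 6 other settings, among them the difference within the slide that held both genotypes. All points lie above 0, and the dotted line marks the threshold of 1. Saa3, with a WT level not well above background, spreads most, from 3.33 with an offset background correction to 8.07 without WT replicate 4.

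Some neutrophil genes were also high on some of these arrays. S100a8, a calcium-binding protein abundant in neutrophils, had log2 intensities of 4.37, 5.02, 4.33 and 10.21 in WT and 9.52, 8.58 and 9.92 in AR113Q. S100a9, its partner, had 7.21, 7.48, 6.43 and 12.93 in WT and 8.43, 10.50 and 10.54 in AR113Q. WT replicate 4, the array with the highest WT level of most members, thus had the highest level of both, as it had of 4 of the 7 neutrophil markers tested, but the lowest of Csf3r (12.96). Of the 10 neutrophil markers 7 were tested and limma called 0, with 1 at an unadjusted p under 0.05 (S100a8, adjusted p = 0.0731), though 1 of 2 kept probes of Camp was called higher. All 7 log2 fold changes were above 0, with a median of 0.95, while Mpo and Ngp were dim on all arrays and Ly6g had no probe. The summed linear intensity of the list ran from 9059 to 17450 in WT and from 10330 to 14610 in AR113Q, but Csf3r, which hardly differed (0.03), made up 45.8% to 98.1% of it. Over the other 6 tested markers, a sum added after the values were seen, WT replicate 4 had 9458, the other WT arrays 190.2 to 333.7 and the AR113Q arrays 1246 to 2705. The part of neutrophils in the member values was not tested.

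Most hepatocyte markers could not be tested. Of 10, Apoa1, Apob, Fgb, Hpd and Ahsg were dim on all arrays, and Alb and Serpina1c were well above background on 1 array each. Among the 3 that were tested limma called 0, with 1 higher and 1 lower at an unadjusted p under 0.05. The log2 differences were -0.98 for Cyp2e1 (adjusted p = 0.0675), 0.22 for Apoa2 and 0.59 for Tat. The summed intensity of the list was 7327 to 15280 in WT and 3516 to 7927 in AR113Q. Cyp2e1, by far the brightest (mean log2 intensity 13.08 in WT and 12.10 in AR113Q), made up most of that sum. Of the macrophage list 1 of 10 was called higher (Cd163) and 3 lower (Csf1r, Lyz2, Adgre1), with sums of 10050 to 17360 in WT and 7828 to 11180 in AR113Q. Fibroblast markers fell in 5 of 8 and adipocyte markers in 4 of 7, with 0 called higher by limma in either list and 1 (fibroblast) and 0 (adipocyte) higher at an unadjusted p under 0.05. Endothelial markers gave 1 of 8 higher and 1 lower (12.5% each, near the shares of all genes), and T and B cell markers 2 of 4 tested lower. Limma called 0 of the 5 erythroid markers tested, with 1 lower at an unadjusted p under 0.05. Erythroid sums were 126700 to 395500 in WT and 154200 to 183000 in AR113Q. WT replicate 4 was highest for every tested erythroid marker and WT replicate 3 next, as in Alas2 (12.37 and 11.14, against 9.06 to 9.37 elsewhere). The part of blood in the member values was not tested.

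The other genes of the pathway were described from lists by role, 113 genes in all. Of the 81 tested, 29 (35.8%) were called higher and 10 (12.3%) lower, beside 11.2% and 13.1% of all genes, and their median log2 fold change was 0.64. The lists were drawn up with earlier results known, so these shares are a description. Of the 29, 5 (Saa2, Il6, Itih3, Icam1 and Il17ra) were well above background on no WT array and entered the fit through the AR113Q arrays alone, so their adjusted p sets a signal against background. Over probes well above background on all 7 arrays 65 genes were tested, with 20 (30.8%) higher and 10 (15.4%) lower beside 10.1% and 11.5% of all genes. With the offset background correction 15 (18.5%) of 81 were higher and 7 (8.6%) lower, beside 4.8% and 5.7% of all genes, so calls became fewer over the whole array. In the authors' values 9 (13.4%) of 67 were higher and 7 (10.4%) lower, beside 4.2% and 5.0% of all genes.

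Of the IL-6 family ligands, 5 of 9 were tested and Il6 alone was called. Cntf (0.92, limma, adjusted p = 0.0196) and Ctf1 (0.64, adjusted p = 0.00854), named after their values were seen, missed only the fold change threshold. Il6 had log2 intensities of 2.85, 2.52, 3.80 and 4.06 in WT, where no array showed it well above background, and 5.47, 5.13 and 4.88 in AR113Q. It was at least 2.50-fold higher (limma, adjusted p = 0.00559, a signal set against background). With the offset background correction, however, its difference fell to 0.35 on the log2 scale (adjusted p = 0.0516, range 0.00412 to 0.0516 over 19 alternatives). Lif and Osm were dim on all arrays. The median of the list was 0.69.

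The other receptors of the gp130 family did not follow Il6ra. Of 3 tested, 2 were called lower: Cntfr, the ciliary neurotrophic factor receptor, by a log2 fold change of -2.10 ± 0.63 (SE, adjusted p = 0.027), and Lifr, the leukemia inhibitory factor receptor, by -1.42 ± 0.17 (adjusted p = 0.0006). Only 1 of 2 kept Cntfr probes and 1 of 3 kept Lifr probes was called, so these genes rest on the brighter probe. In the separate fit over probes well above background on all 7 arrays, the other Cntfr probe differed by -0.12 ± 0.21 (SE, adjusted p = 0.675). With the mean of its probes Lifr differed by -0.84, below the threshold in size. The call of Cntfr was lost without any 1 of 4 of the 7 arrays (WT replicates 1, 2 and 3 and AR113Q replicate 3; adjusted p up to 0.0558), and without AR113Q replicate 3 its difference was -1.34. Il27ra was dim on all arrays.

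Of the Janus kinases and other STAT factors below the receptors, 9 were tested. Of these 0 were called higher by limma, with 1 higher at an unadjusted p under 0.05, and Jak2, the kinase that couples many cytokine receptors to STATs, was lower by a log2 fold change of -1.75 ± 0.21 (SE, adjusted p = 0.000544). Stat2 (-0.89, adjusted p = 0.00749) and Jak3 (0.50, adjusted p = 0.0446), named after their values were seen, passed on the adjusted p but missed the fold change threshold. The median was 0.03, and 1 of 9 lower (11.1%) is near the share of all genes.

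Of the 14 inhibitors of JAK-STAT signalling tested, 6 (42.9%) were called higher and 2 (14.3%) lower, with a median of 0.72. Of all genes 11.2% were called higher and 13.1% lower, so the share called lower is near that of all genes. Without AR113Q replicate 1 the 6 were 3, and with the offset background correction and in the authors' values 3 and 2 were higher and 0 lower by limma. Pias4, a SUMO ligase that restrains STATs, rose by 2.16 ± 0.33 on the log2 scale (SE, adjusted p = 0.00143), Ptpn11, the phosphatase SHP2, by 1.46 ± 0.19 (adjusted p = 0.000696), and Socs2, an inhibitor of growth hormone signalling, by 1.42 ± 0.48 (adjusted p = 0.0414). SHP2 is known to act in cytokine signalling in more than 1 way, so the list's name does not fix its role. Socs5 fell by 1.58 and Ptpn6, the phosphatase SHP1 of blood cells, by 1.29 on the log2 scale. The call of Socs2 was lost without any array but WT replicate 3 (adjusted p up to 0.133), and that of Ptpn6 on leaving out any 1 of 4 arrays: WT replicate 1, WT replicate 4, AR113Q replicate 1 and AR113Q replicate 3 (adjusted p up to 0.0999). Pias3 was dim on all arrays.

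Of the 14 STAT3 target genes, all tested, 7 (50%) were called higher and 2 (14.3%) lower, with a median of 1.06. The share called lower is near the 13.1% of all genes, of which 11.2% were called higher. Without WT replicate 1, WT replicate 2 or AR113Q replicate 1 the 7 were 4, and they were 3 with the offset background correction and 2 in the authors' values, with 2 lower throughout. Junb, an AP-1 subunit well above background on 1 of the 4 WT arrays, had log2 intensities of 3.38, 2.98, 3.89 and 5.13 in WT and 8.69, 6.99 and 7.44 in AR113Q, a fitted difference of 3.86 ± 0.56 (SE, adjusted p = 0.0012) that was 1.39 with the offset background correction. Cebpd, a C/EBP factor that itself drives acute-phase genes, rose by 1.60 ± 0.25 (SE, adjusted p = 0.00173). Icam1, a leukocyte adhesion molecule not well above background in WT, was at least 2.28-fold higher, a call lost with the offset background correction (adjusted p = 0.126, range 0.00579 to 0.135 over 19 alternatives). The genes that fell were Ccnd1, cyclin D1, by 3.85 and Bcl6, a transcriptional repressor, by 2.61 on the log2 scale. Ccnd1 was 8.67 to 9.21 in WT and 4.94 to 5.58 in AR113Q.

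Of 22 other positive acute-phase proteins, 13 were tested, 6 (46.2%) called higher and 2 (15.4%) lower, with a median of 1.23. The share called lower is near the 13.1% of all genes, of which 11.2% were called higher. The 6 were 3 with the offset background correction, 1 in the authors' values and 2 over probes well above background on all 7 arrays, with 2 lower in each. Saa2 had log2 intensities of 1.80, 2.36, 1.81 and 1.79 in WT, well above background on none of them, and 5.65, 9.38 and 5.97 in AR113Q. It was at least 9.08-fold higher (limma, adjusted p = 0.00174, a signal set against background), and AR113Q replicate 2 was again the highest array. Itih4, an inter-alpha-trypsin inhibitor heavy chain well above background on 1 of the 4 WT arrays, had a fitted difference of 2.82 ± 0.39 (SE, adjusted p = 0.000956). Itih3, another, was not well above background in WT and at least 2.14-fold higher (adjusted p = 0.0031, again a signal set against background). With the offset background correction their log2 differences were 0.83 and 0.45, below the threshold of 1. Orm2, Orm1 and Lrg1, outside the naming rule, were the other 3 called higher, by 2.02, 1.95 and 1.67.

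Of the complement proteins, which count as positive acute-phase proteins in plasma, both that were called fell, and C4b was not called (-0.11 ± 0.46). Complement factor B (Cfb) was lower by a log2 fold change of -1.74 ± 0.24 (SE, adjusted p = 0.000949) and C3, the central complement protein, by -1.52 ± 0.34 (adjusted p = 0.00749) with both its probes called. Saa4, Hpx, Fgb, Apcs, Crp, Hamp and A2m were dim on all arrays. Of the 7 negative acute-phase proteins, which fall in plasma during inflammation, 2 were tested, and Rbp4, the plasma retinol carrier, also made by adipocytes, was lower by -2.74 ± 0.41 (SE, adjusted p = 0.00137). Ttr, Apoa1, Ahsg and Serpina6 were dim on all arrays.

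Among the 10 other Serpina3 paralogs, 5 were tested and 2 called higher. Serpina3m, well above background on 2 of the 4 WT arrays, had log2 intensities of 5.06, 3.54, 3.03 and 4.36 in WT and 8.13, 9.36 and 7.84 in AR113Q, a difference of 4.45 ± 0.53 (SE, adjusted p = 0.000548). Serpina3c rose by 1.13 ± 0.38 (adjusted p = 0.0432), with overlapping groups and a call lost without any array but AR113Q replicate 1 (adjusted p up to 0.144). Serpina3a, Serpina3f and Serpina3j were dim on all arrays.

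Of the lipopolysaccharide recognition genes that act downstream of Lbp, 3 of 5 tested were called higher: Tlr4, the receptor, by 1.45 ± 0.24 (SE, adjusted p = 0.00212), Cd14, the coreceptor that takes lipopolysaccharide from LBP, by 1.42 ± 0.22 (adjusted p = 0.00145), and Myd88, the adaptor, by 1.30 ± 0.23 (adjusted p = 0.00276). Slc22a17, a receptor described for lipocalin 2, was tested and not called (-0.57 ± 0.18), and Lrp2, another, was dim on all arrays. The median over all 6 tested was 0.85.

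Of 14 genes of IL-1, TNF and NF-kB signalling, 10 were tested, 4 called higher and 0 lower by limma, with none lower at an unadjusted p under 0.05. Il17ra, a subunit of the IL-17 receptors, was not well above background in WT and at least 3.52-fold higher. It is among the 4 but entered the fit through the AR113Q arrays alone, so its adjusted p (limma, 0.0014) sets a signal against background. Il1r1, the IL-1 receptor, rose by 1.74 ± 0.29 (SE, adjusted p = 0.00219), and Nfkbia, the inhibitor of NF-kB, by 1.32 ± 0.25 (adjusted p = 0.00398). The ligands Il1a and Tnf and the coreceptor Il1rap were dim on all arrays. The median was 0.79.

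The size of some of these differences depended on how background was handled. With the offset background correction, Serpina3m differed by 1.92 and Ccnd1 by -2.11 on the log2 scale, both still called, as was Junb. Saa2 differed by 1.53 there, but its WT level is a bound and it entered the fit through the AR113Q arrays alone. Socs5 (-0.74), Cntfr (-0.66), Ptpn6 (-0.69), Serpina3c (0.75), Il17ra (0.33) and Myd88 (0.99) then missed the threshold of 1, as did Myd88 (0.89), Tlr4 (0.85), Socs5 (-0.52), Cntfr (-0.41), Ptpn6 (-0.48) and Serpina3c (0.62) in the authors' values.

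**Figure D3:**
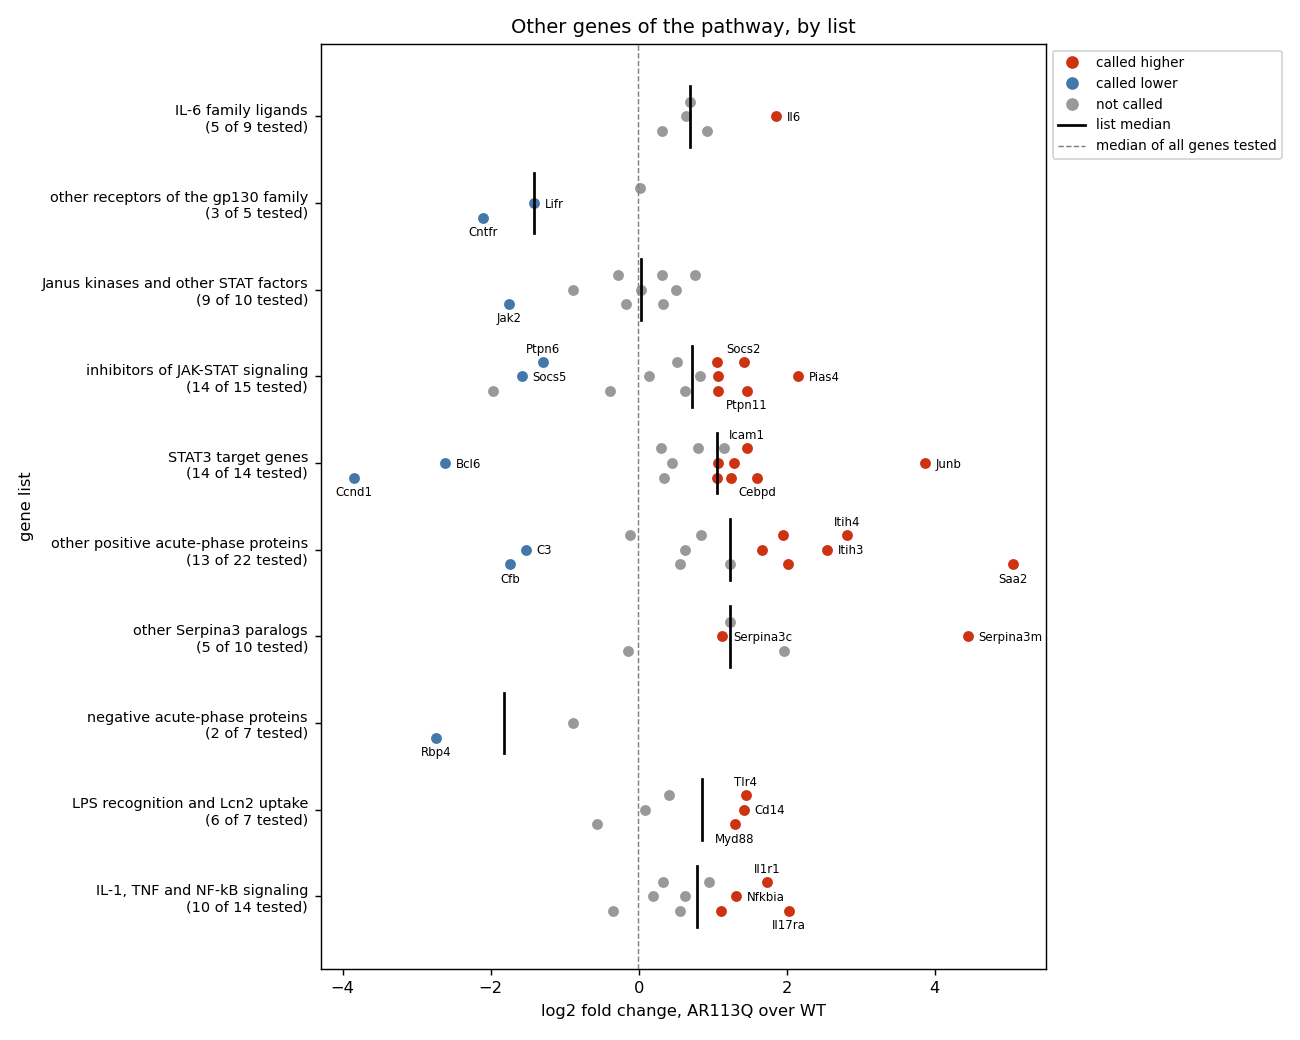
Log2 fold change of the tested genes of each pathway list (x axis, AR113Q over WT; y axis, lists, with vertical jitter), red where called higher, blue where called lower and grey where not called; vertical bars are list medians and the dashed line is the median of all genes tested. Of the other gp130 family receptors 2 of 3 lie below 0 (median -1.42), and the other positive acute-phase proteins mostly above it (median 1.23).

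**Figure D4:**
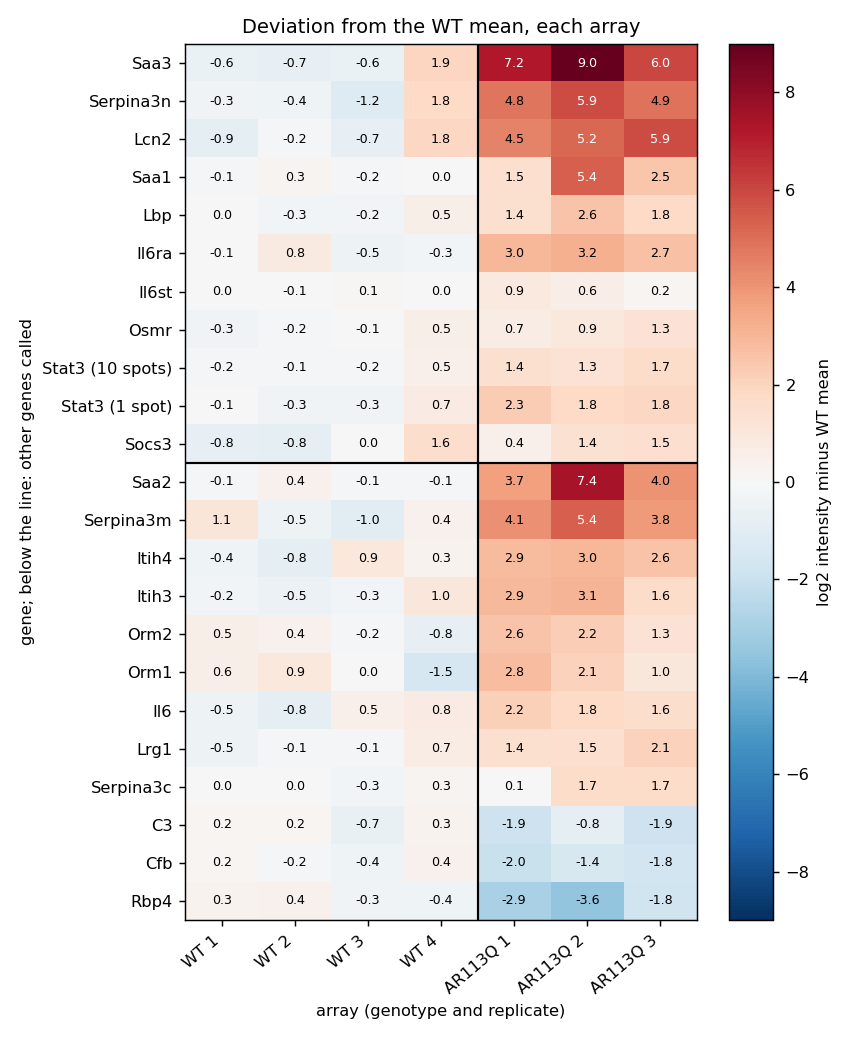
Log2 intensity minus the WT mean (colour and printed value) for the members and, below the line, the called genes among the other acute-phase proteins, Serpina3 paralogs and IL-6 family ligands (rows), on each array (columns). AR113Q replicate 2 is highest for the 3 serum amyloid A genes Saa3, Saa1 and Saa2, and C3, Cfb and Rbp4 are below the WT mean on all 3 AR113Q arrays.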

How the data were processed

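Per the labels, the file headers and the study's methods, the authors made Cy3-labelled cRNA from total RNA, hybridised it to Agilent 4x44K V2 mouse arrays and made the scanner tables with Agilent Feature Extraction (version 10.7.3.1). The deposited processed signal is an intensity, background-corrected by that software. A table of the authors' normalized log2 values, quantile normalized per the study's methods, was used as an alternative. From the processed signal of the 43020 non-control spots per array, log2 values were quantile normalized, flagged outlier spots left out and spots of a probe averaged. Probes that 3 or more of the 7 arrays showed well above background were fitted with limma (version 3.58.1, R version 4.3.3; lmFit, eBayes), AR113Q against WT, with Benjamini-Hochberg adjustment over all of them. A gene is its brightest kept probe. Levels below background on a whole genotype are given as bounds. Probe names were updated by accession through RefSeq for 28330 of 39429 probes. The number of arrays limits the precision. The fit was tested on simulated data.

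The members and lists were chosen with earlier results of these data known. Named genes are all members, Il6 and Saa2, and of each list the 3 called genes with the largest increase and decrease, genes without a probe and genes never above background. Alternatives were 75th percentile scaling, background correction by normexp with an offset of 50, the authors' values, filters on dim probes, 1 value per gene, outlier spots kept, an intensity trend, array weights, slide as a block, a replicate block, no fold change threshold and leaving out each array. 1 gene of a list and the sequence of 1 probe are not reported here.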

Additional observations from a re-analysis of the deposited data

Results flagged for a closer look

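In 6 of 39 probes tested among members and named genes, 1 of the 4 WT arrays stood apart from the other three, its gap to the nearest divided by the range of the group being over the 95% limit. Chance alone passes that limit in about 1 of 20 groups, but these probes share the same 4 WT arrays and are not independent. Saa3 (0.938), Stat3 in its 10-spot probe (0.864) and Pias4 (0.866) had WT replicate 4 as the highest array, at log2 intensities of 4.44, 11.91 and 7.78 against 1.92, 11.32 and 7.29 in the nearest. Saa2 (0.969) had WT replicate 2 highest, at 2.36. For Saa3 and Saa2 none of the 4 WT arrays was well above background. Ccnd1 (0.838) had WT replicate 2 lowest, at 8.67, and C3 (0.850) had WT replicate 3 lowest, at 13.75.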

How the results depend on the processing

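All 11 member probes and the 28 named related genes kept their direction under every alternative that gave a value for them. The fit called 5207 probes, 7 members, and 29 related genes higher and 10 lower. With the normexp background it called 2075 probes and 15 related genes higher and 7 lower, and with the authors' values, which hold no Saa3, 1592 probes, 5 members (Saa1 was lost) and 9 related genes higher and 7 lower. Over probes above background on all 7 arrays, which leave out Saa3, 6 members were called. Genes called higher were 46.0% of all called genes with the normexp background and 45.6% in the authors' values, as against 46.0%. Of the related genes called, 74.4% were higher, as against 68.2% and 56.2%. Without a fold change threshold 9200 probes were called. With slide as a fixed effect limma called 0 probes, 0 members, 0 related genes higher and 0 lower, with 27 and 8 related genes at an unadjusted p under 0.05, and slide as a random block called 7 members. Leaving out each array gave 4453 to 5562 probes, 7 to 9 members (9 without WT replicate 4), and 22 to 29 related genes higher and 8 to 10 lower. Deviations from the group means correlated at 0.037, -0.022 and 0.156 between same-numbered arrays of the genotypes, the last being the highest of all pairs. So few values cannot decide whether the numbers pair the arrays, which the main fit treated as unpaired. A replicate block gave 5188 probes, 9 members, and 28 related genes higher and 8 lower. Signal near background limits Saa3, Saa2, Il6, Itih3, Icam1 and Il17ra, whose WT levels are bounds, and Junb, Itih4 and Serpina3m, which were above it on 1, 1 and 2 of the 4 WT arrays.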
